A study of Homo sapiens with 6 samples.

Results

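The genes of epithelial sodium transport were followed, together with HSD11B2, in MCF10A cells cultured with or without growth factors. They are 8 of the 19198 genes in the table: the sodium channel subunits SCNN1A and SCNN1B, the channel regulator NEDD4L, the membrane proteases PRSS8 and ST14, the sodium pump subunit ATP1B1, the carbonic anhydrase CA2, and HSD11B2. They were selected by name with their measured values in these same 6 samples in view, so the difference between the conditions is given for them as a description, with no p-value, and supports nothing by itself. All 8 were found in the table and all 8 passed the minimum of a mean of 10 normalized counts across samples.

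MCF10A is an established, non-tumorigenic line of human mammary epithelial cells, so all samples come from a single line. The 3 control samples were grown in medium holding 5% horse serum and 4 additions, hydrocortisone at 0.5 µg/ml, insulin at 10 µg/ml, cholera toxin at 100 ng/ml and EGF at 20 ng/ml. The 3 growth factor-depleted samples kept the serum and lacked all 4 additions. Hydrocortisone is cortisol, the substrate of HSD11B2, and all 4 additions were removed together, so their effects cannot be told apart. The study used the depletion to look at epithelial-mesenchymal transition without added TGFβ. The labels list 3 samples in each condition, although the design text mentions 2 replicates, and the 6 labelled samples are used here. The day of RNA collection is not given for these samples, and nothing in the labels says that the replicates were separate cultures, so the p-values below measure only the spread between these samples.

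In absorbing epithelia, sodium enters through the epithelial sodium channel (ENaC), built of an alpha (SCNN1A), a beta (SCNN1B) and a gamma (SCNN1G) subunit in the apical membrane, and leaves through the sodium pump in the basolateral membrane. NEDD4L is a ubiquitin ligase that removes the channel from the cell surface, and membrane-bound serine proteases, among them prostasin (PRSS8), raise the activity of the channel. HSD11B2 converts cortisol to inactive cortisone and so keeps cortisol from the mineralocorticoid receptor, the aldosterone receptor through which the kidney raises ENaC and the sodium pump. The mammary epithelium also carries this channel, and milk is low in sodium.

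The values are normalized counts, meaning reads per gene divided by a size factor for the sample, with no division by gene length. The samples held between 7472418 and 28672630 reads on genes, and 3 reads, taken as the floor, correspond to between 1.76 and 6.71 normalized counts. This floor and the Poisson intervals below cover counting error only. A log2 difference is the mean of log2(normalized count + 1) without growth factors minus that with them, and the folds below are this difference on a linear scale. Depleted replicate 1 stood apart from depleted replicates 2 and 3 in several epithelial genes. KRT5, a basal keratin, had 562 normalized counts in it against 10908 and 14997, and EPCAM, an epithelial adhesion molecule, had 153 against 2281 and 2486. KRT5 and EPCAM were named after their values were seen, and other luminal and basal markers differed. KRT14, ITGB4, EGFR, KRT19, MUC1 and GATA3 were highest in that sample among the depleted samples. KRT8, KRT17, TP63, FOXA1 and ESR1 were lowest in it, and KRT18 lay between. Each member is given with and without that sample. SCNN1A, NEDD4L, PRSS8, ATP1B1 and HSD11B2 overlap other genes on the opposite strand, and although the libraries keep the strand, the strand setting of the counting is not given in the sources used here.

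The channel subunits, CA2 and HSD11B2 were lower in every depleted sample than in every control sample, while NEDD4L, PRSS8, ST14 and ATP1B1 overlapped between the conditions. The test was limma across the 16988 genes past that minimum, and a gene counts as called where it differs by 2-fold or more at a p, adjusted after Benjamini and Hochberg, below 0.05. By this rule 4 of the 8 members were called, all 4 lower without growth factors, whereas 6.33% of all genes tested were called, 1.97% lower and 4.36% higher. This count only describes the members and nothing is read from it, because they were chosen on the same contrast. Every depleted sample lay below every control sample for 4 members and above for 0, against 12.1% and 13.5% of all genes. The median log2 difference of the 8 members was -2.10, beside -0.03 over all genes tested. In bulk RNA, fewer cells that express a gene and less of its RNA per cell cannot be told apart.

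**Figure D1:**
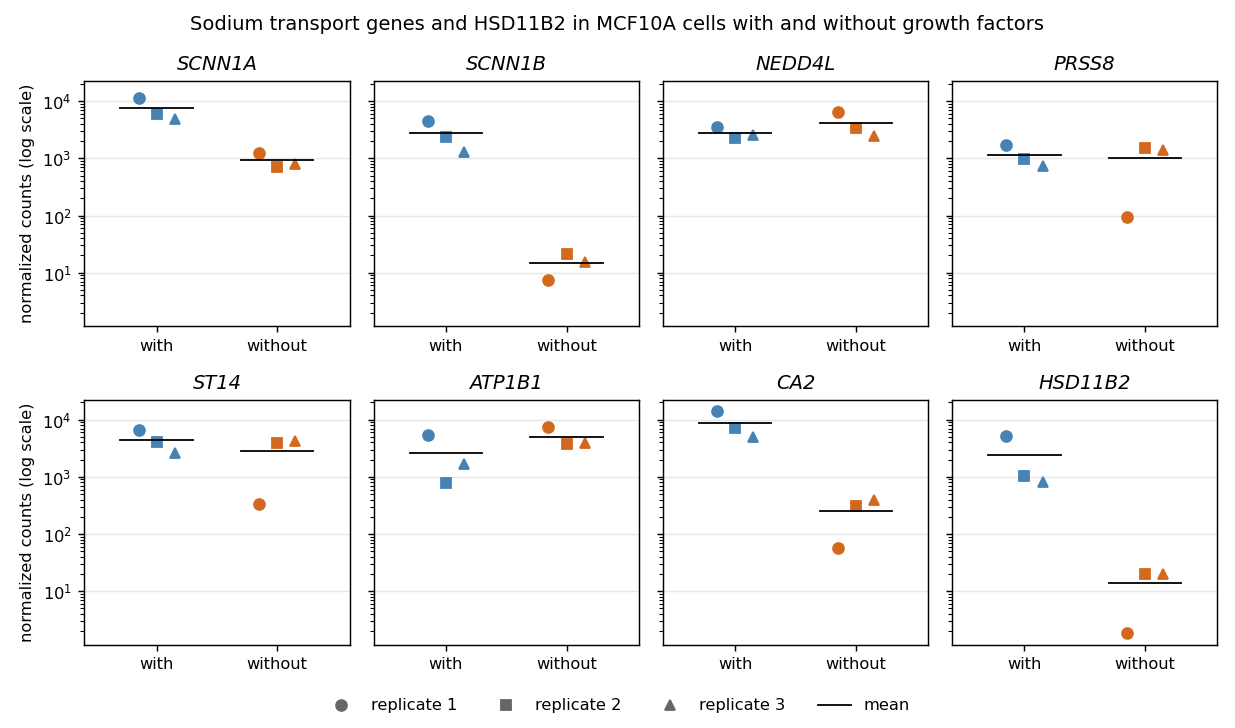
Normalized counts (log scale) of the 8 genes in each of the 6 samples, with growth factors on the left of each panel and without on the right, where marker shapes give the replicate number and lines the mean of 3 samples. SCNN1A, SCNN1B, CA2 and HSD11B2 do not overlap between the conditions, and depleted replicate 1 is the low point of PRSS8 and ST14.

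SCNN1B was the most reduced of the members. It encodes the beta subunit of ENaC, lies on the plus strand at chr16:23278231-23381294 (hg38), and its normalized counts were 4502, 2344 and 1317 in control replicates 1, 2 and 3. In depleted replicates 1, 2 and 3 they were 7.32, 21.6 and 15.7. The conditions were far apart and depleted replicate 1 was the lowest sample, although only 8, 33 and 7 reads stood behind these last values. The Poisson 95% interval was 3.16 to 14.4 normalized counts in depleted replicate 1 and 6.29 to 32.2 in depleted replicate 3, so these samples cannot be ordered at this depth. The means were 2721 ± 1625 with growth factors and 14.9 ± 7.19 without (SD, n = 3 each). The log2 difference was -7.36 (SE 0.55), or 164-fold lower, and 124-fold lower without depleted replicate 1. Of the 16988 genes tested, 1 had a lower log2 difference. The size depends on the added constant, and was -6.65 when 10 rather than 1 was added to the normalized counts.

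SCNN1A, the alpha subunit, without which the channel conducts poorly, was lower too but stayed well above the floor. It lies on the minus strand at chr12:6346843-6377730 and shares 422 bases with LTBR on the other strand. It had 11482, 6029.5 and 4875 normalized counts in the controls and 1246, 715 and 796 in the depleted samples. All depleted samples lay below all control samples, and depleted replicate 1 was the highest of them, unlike for SCNN1B. The means were 7462 ± 3529 and 919 ± 286 (SD, n = 3 each), a log2 difference of -2.96 (SE 0.39) or 7.80-fold lower, and 9.22-fold lower without depleted replicate 1. There were 180 genes with a lower difference.

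The alpha and beta subunits were thus reduced by unequal amounts, which is seen within each sample when levels are set per kb of the canonical transcript. SCNN1A exceeded SCNN1B by 2.07, 2.09 and 3.01 times per kb in the controls. In the depleted samples it exceeded it by 138, 26.9 and 41.3 times, with no overlap. The pairs of genes compared as ratios here and below were picked after their values were seen.

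The gamma subunit SCNN1G, which is not a member, fell as well. It had 3093, 1717 and 232 normalized counts in the controls and 3.66, 25.6 and 42.5 in the depleted samples, the lowest value resting on 4 reads. It was called by limma, with a log2 difference of -5.94 (SE 1.08, adjusted p = 0.0153) or 61.3-fold lower. Control replicate 3 lay far below the other controls, and the adjusted p was 0.0651 without control replicate 1 and 0.0587 without control replicate 2, with log2 differences of -5.17 and -5.60. The size of its fall was less certain still, at 31.6-fold without depleted replicate 1 and 132-fold without control replicate 3. With 10 rather than 1 added to the normalized counts it was 37.1-fold. SCNN1D, the delta subunit, was low in every sample, at 3.76, 25.8 and 94.4 normalized counts in the controls and 32.0, 11.1 and 17.9 in the depleted samples, and its log2 difference of -0.23 was not called (limma adjusted p = 0.94).

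The sequence just upstream of SCNN1B is shown because this gene had the largest difference of the members and sequence for its promoter was at hand. RefSeq windows on GRCh38.p14 were found for 3 of the 8 members. The 250 bases before the SCNN1B start, chr16:23302052-23302301 on the plus strand, hold 70% G or C. The start here is that of the RefSeq window, and these bases lie within the Gencode span of the gene given above. Capitals mark a GC box on the opposite strand.

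SCNN1B upstream: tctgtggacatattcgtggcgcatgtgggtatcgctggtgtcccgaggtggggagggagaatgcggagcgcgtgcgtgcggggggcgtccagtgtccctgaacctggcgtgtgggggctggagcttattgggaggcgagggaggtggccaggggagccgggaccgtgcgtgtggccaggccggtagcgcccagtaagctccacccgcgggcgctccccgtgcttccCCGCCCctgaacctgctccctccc

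The letters GGGCGG, searched on both strands, were found 1 time, as CCGCCC at position 227 counted from the 5′ end of the window, and 42.6% of 35116 RefSeq windows hold them. The E-box CAGGTG, the glucocorticoid receptor half-site AGAACA and the RUNX motif TGTGGT, each searched on both strands, were found 0 times, beside 17.5%, 12.4% and 11% of all windows. These are matches of letters in a single window and say nothing of binding.

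NEDD4L, the ligase that marks ENaC subunits for removal, did not part the conditions. It lies on the plus strand at chr18:58044226-58401540 and had 3507, 2259 and 2569.5 normalized counts in the controls. In the depleted samples it had 6507, 3341 and 2419. Depleted replicate 1 was the highest sample, and depleted replicates 2 and 3 fell within the range of the controls. The means were 2778 ± 649 and 4089 ± 2144 (SD, n = 3 each). The log2 difference of 0.46 (SE 0.40) was 0.06 without depleted replicate 1, so the higher mean rests on that sample. Per kb, NEDD4L stood to its close relative NEDD4 at 0.886, 0.587 and 0.534 in the controls and at 1.42, 0.966 and 0.859 in the depleted samples, and these ratios overlapped.

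Among the other regulators of the channel, 13 of 15 listed genes were tested. CFTR is not in the table, and SGK2 was below the minimum. By limma 0 were called, with 1 at an unadjusted p under 0.05. edgeR called 0 and DESeq2 called 2, namely TSC22D3 as lower and STK39 as higher. STK39 had 615, 428 and 232 normalized counts in the controls and 1259, 940 and 1118 in the depleted samples, with no overlap. Its log2 difference was 1.48 (limma adjusted p = 0.0609). SGK1, the kinase that restrains NEDD4L, had 4440.2, 1245 and 2232 normalized counts in the controls and 1376, 4109.7 and 4859 in the depleted samples, a log2 difference of 0.38 (limma adjusted p = 0.782). TSC22D3 (GILZ), a glucocorticoid-induced regulator of ENaC, had 5679.7, 643 and 379.7 normalized counts in the controls and 459, 352 and 465 in the depleted samples. Its high mean in the controls came from control replicate 1, and its log2 difference of -1.40 was not called by limma (adjusted p = 0.428) but was by DESeq2 (adjusted p = 0.0291).

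PRSS8 and ST14 were low in depleted replicate 1 and near the controls in depleted replicates 2 and 3. PRSS8 (prostasin), on the minus strand at chr16:31131433-31135727, had 1727, 955 and 732 normalized counts in the controls and 95.2, 1493 and 1413 in the depleted samples. Depleted replicate 1 held 8.37% of the control mean, and depleted replicates 2 and 3 held 131% and 124% of it. The means of 1138 ± 522 and 1000.4 ± 785 (SD, n = 3 each) therefore describe neither kind of sample. The log2 difference was -0.86 (SE 0.96), and 0.45 without depleted replicate 1, so its direction rests on that sample. By edgeR on recovered reads it was -0.13.

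ST14 (matriptase), a membrane protease that activates prostasin, lies on the plus strand at chr11:130159782-130210362. It had 6668.5, 4114 and 2603 normalized counts in the controls and 331, 3841 and 4195 in the depleted samples. Again depleted replicate 1 alone fell outside the range of the controls, at 7.43% of their mean, beside 86.1% and 94.0% in the other 2. The means were 4462 ± 2055 and 2789 ± 2136 (SD, n = 3 each), and the log2 difference of -1.25 (SE 0.90) was -0.05 without depleted replicate 1 and -0.63 by edgeR on recovered reads.

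Both proteases shared the low value of KRT5 and EPCAM in depleted replicate 1, which not all epithelial markers shared. Per kb, PRSS8 stood to ST14 at 0.466, 0.418 and 0.506 in the controls and at 0.517, 0.699 and 0.606 in the depleted samples. The ratio thus stayed in a narrow range even in depleted replicate 1, although the conditions did not overlap.

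Of 10 other genes that cut the channel or inhibit such proteases, 1 rose and 2 fell by limma. SERPINE2, an inhibitor of serine proteases including prostasin, had 405, 999 and 598 normalized counts in the controls and 3622, 4101 and 5134 in the depleted samples. It rose 6.79-fold, with a log2 difference of 2.76 (SE 0.37, limma adjusted p = 0.00407) and no overlap. PCSK5, a proprotein convertase, fell from 1269.5, 1060.4 and 2235 normalized counts to 132, 341 and 226, a log2 difference of -2.73 (SE 0.43, limma adjusted p = 0.00827).

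PCSK6, another convertase, fell from 238, 315 and 128 normalized counts to 7.32, 39.3 and 47.0, with a log2 difference of -3.08 (limma adjusted p = 0.0429). This call was near the threshold. The adjusted p was 0.0538 by edgeR and, with limma, 0.141 without control replicate 1, 0.135 without control replicate 2, and 0.0511, 0.0873 and 0.0640 without depleted replicates 1, 2 and 3. By limma without trend, the adjusted p of PCSK6 was 0.0612. Its fall was 8.45-fold, and 4.85-fold without depleted replicate 1. The matriptase inhibitor SPINT1 had 3835, 2541 and 2141 normalized counts in the controls and 648, 2187 and 2159.9 in the depleted samples, and so was low in depleted replicate 1 like its target, with a log2 difference of -0.92 that was not called (limma adjusted p = 0.36). SPINT2, the related inhibitor, had a log2 difference of 0.08 (limma adjusted p = 0.948).

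**Figure D2:**
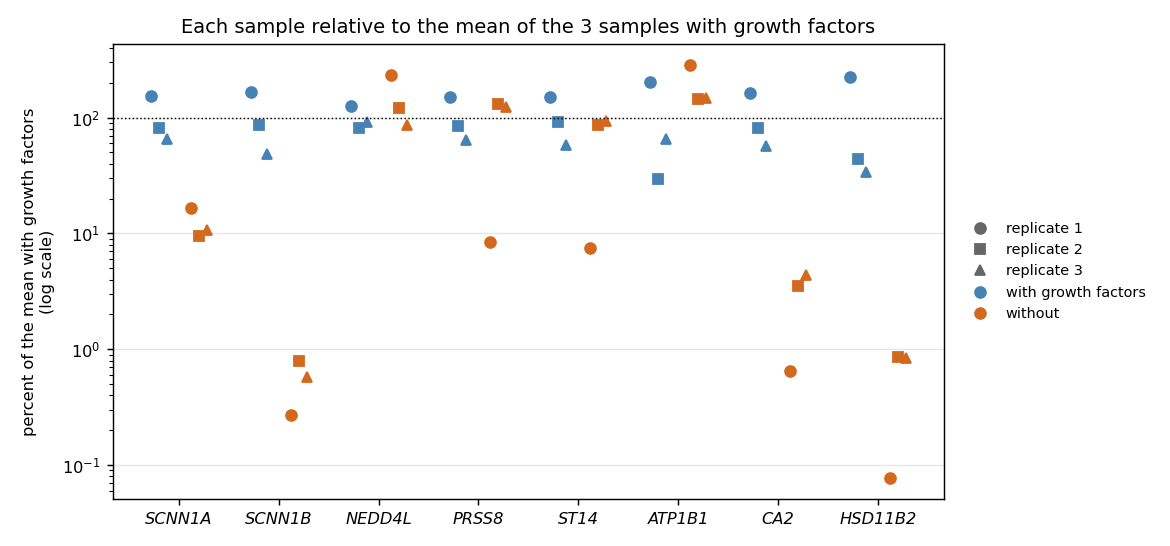
Each sample as a percent of the mean of the 3 control samples (log scale) for the 8 genes, in blue with growth factors and in orange without, with marker shapes for the replicate number. Depleted replicate 1 held 8.37% and 7.43% of the control mean for PRSS8 and ST14, while the other depleted samples lay between 86.1% and 131%.

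ATP1B1, the beta subunit that carries the pump to the membrane, had a higher mean without growth factors, but its samples overlapped. It lies on the plus strand at chr1:169105697-169310992, overlaps NME7 on the other strand, and shares 107 bases with the same-strand gene ENSG00000235575, so reads on those bases cannot be assigned with certainty. It had 5301, 769 and 1703 normalized counts in the controls and 7423, 3730.1 and 3857 in the depleted samples. Control replicate 1 lay above depleted replicates 2 and 3, and the controls spanned 6.89-fold. The means were 2591 ± 2393 and 5003 ± 2096 (SD, n = 3 each). The log2 difference was 1.31 (SE 0.65), 0.99 without depleted replicate 1, 2.05 without control replicate 1 and 0.66 without control replicate 2.

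ATP1B3, another beta subunit of the pump, had 6494, 2224 and 3172 normalized counts in the controls and 3152, 2104 and 2625 in the depleted samples, and these overlapped (log2 difference -0.47, limma adjusted p = 0.609). Within each sample the balance of the beta subunits differed between the conditions. Per kb, ATP1B1 stood to ATP1B3 at 0.680, 0.288 and 0.448 in the controls and at 1.96, 1.48 and 1.22 in the depleted samples, with no overlap.

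Of the other pump subunits and FXYD regulators listed, 4 of 13 were tested and the rest are not in the table. FXYD3, an FXYD protein that modulates the pump, was the gene called. It fell from 12690.3, 8905 and 4572 normalized counts to 573, 909 and 968, which is 10.1-fold lower, with a log2 difference of -3.33 (SE 0.42, limma adjusted p = 0.00332). The depleted samples lay close together, depleted replicate 1 included.

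CA2 was the most abundant of the members per kb in the controls and among the lowest without growth factors. Carbonic anhydrases hydrate CO2 to bicarbonate and a proton, and CA2 is a cytosolic form that supplies sodium-coupled acid and bicarbonate transporters. It lies on the plus strand at chr8:85463968-85481493 and had 14367, 7272 and 5010.2 normalized counts in the controls. In the depleted samples it had 57.7, 315 and 387. Every depleted sample was far below every control sample, and depleted replicate 1, with 0.649% of the control mean, was below depleted replicates 2 and 3, with 3.55% and 4.35%. The means were 8883 ± 4882 and 253 ± 173 (SD, n = 3 each). The log2 difference was -5.38 (SE 0.71) or 41.7-fold lower. Without depleted replicate 1 it was -4.52 or 23.0-fold lower, so the size of the difference depends on that sample. There were 23 genes with a lower difference.

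Of the other carbonic anhydrases, 7 of 14 were in the table and tested, and 1 was called. CA12, a membrane-bound form, fell from 95.2, 239 and 635 normalized counts to 22.9, 20.3 and 15.7, with a log2 difference of -3.59 (SE 0.67, limma adjusted p = 0.0180). The adjusted p was 0.0592 without control replicate 2, 0.0672 without depleted replicate 2 and 0.0735 without depleted replicate 3. Its fall of 12.0-fold was 19.2-fold without control replicate 1 and 7.45-fold without control replicate 3. CA13, a cytosolic form like CA2, had 1048, 398 and 728 normalized counts in the controls and 624, 513 and 358 in the depleted samples (log2 difference -0.47, limma adjusted p = 0.60). Per kb CA2 exceeded CA13 by 34.1, 45.5 and 17.1 times in the controls, and stood to it at 0.230, 1.53 and 2.69 in the depleted samples. CA3, CA5B, CA8, CA9 and CA11 had log2 differences of -0.32, 0.83, -1.06, -2.06 and 1.50, and none was called.

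HSD11B2, the enzyme that inactivates cortisol, was near the floor without growth factors. It lies on the plus strand at chr16:67430652-67437553 and had 5281, 1039 and 808 normalized counts in the controls, with control replicate 1 far above the others. Without them it had 1.83, 20.3 and 20.1 normalized counts, from 2, 31 and 9 reads. The highest depleted sample was far below the lowest control. Depleted replicate 1 was under the floor of 3 reads, with a Poisson 95% interval of 0.222 to 6.61 normalized counts, which does not reach the interval of 9.20 to 38.2 in depleted replicate 3. The means were 2376 ± 2519 and 14.1 ± 10.6 (SD, n = 3 each). The log2 difference was -7.24 (SE 0.95) or 152-fold lower, and 2 genes had a lower difference. It was -6.28 or 77.4-fold lower without depleted replicate 1, and -6.40 or 84.6-fold lower without control replicate 1. Its size thus rests in part on both of these samples, the former with 2 reads. The size also depends on the added constant, and was -6.23 when 10 rather than 1 was added to the normalized counts.

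The steroid receptors on which HSD11B2 bears were not called. NR3C2, the mineralocorticoid receptor, had 565, 103 and 86.6 normalized counts in the controls and 223, 441 and 311 in the depleted samples (log2 difference 0.86, limma adjusted p = 0.561). NR3C1, the glucocorticoid receptor, had 3898, 3650.4 and 5131 with growth factors and 4912, 3251 and 2862 without (log2 difference -0.23, limma adjusted p = 0.763). Both receptors overlapped between the conditions.

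Per kb, HSD11B2 exceeded NR3C2 by 28.5, 31.0 and 28.5 times in the controls, where both genes were highest in replicate 1. In the depleted samples it stood to NR3C2 at 0.0250, 0.141 and 0.198. HSD11B1, the enzyme that makes cortisol from cortisone, is not in the table.

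**Figure D3:**
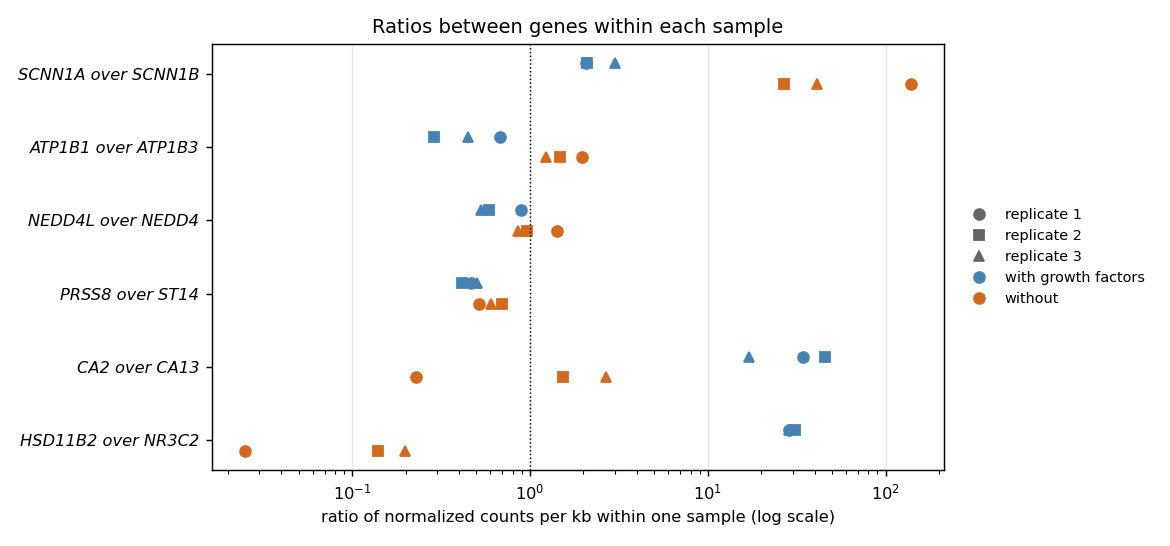
Ratios of normalized counts per kb of canonical transcript between pairs of genes within each sample (log scale), in blue with growth factors and in orange without, with marker shapes for the replicate number and a dotted line where the genes are equal. The ratio of HSD11B2 to NR3C2 lies between 28.5 and 31.0 in the controls and between 0.0250 and 0.198 without growth factors. Only the ratio of NEDD4L to NEDD4 overlaps among the 6 drawn. Among pairs compared but not drawn, SCNN1A to SCNN1G, SCNN1B to SCNN1G, ST14 to SPINT1 and PRSS8 to SPINT2 overlap, and NR3C1 to HSD11B2 does not.

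Of the other genes of cortisol handling, 8 of 10 were tested and 1 was called. FKBP5, a chaperone of the glucocorticoid receptor and itself a target of it, fell from 13484, 10934 and 3839.5 normalized counts to 611, 610.4 and 512, a log2 difference of -3.84 (SE 0.46, limma adjusted p = 0.00268) or 14.3-fold. Among 10 known glucocorticoid targets, FKBP5, PER1 and ZBTB16 fell and 0 rose by limma with all samples. ZBTB16, a transcription factor, went from 789.5, 451 and 387 normalized counts to 3.66, 13.8 and 8.94 (log2 difference -5.87, limma adjusted p = 0.00115). These depleted values rest on 4, 21 and 4 reads, and the log2 difference was -4.85 when 10 rather than 1 was added to the normalized counts. PER1, a clock gene, went from 754, 785 and 418 to 249, 113 and 58.1 (log2 difference -2.40, limma adjusted p = 0.0364). The adjusted p for PER1 was 0.0545 by edgeR, and with limma it was 0.132 and 0.114 without control replicates 1 and 2 and 0.123 and 0.112 without depleted replicates 2 and 3. By limma without trend, that of PER1 was 0.0639. CRISPLD2, another target, had 15.0, 58.0 and 22.6 normalized counts in the controls and 12.8, 1278 and 800.5 in the depleted samples. It was not called (log2 difference 3.10, limma adjusted p = 0.310), but was called higher without depleted replicate 1 (log2 difference 5.17, limma adjusted p = 0.00510) and by DESeq2 (adjusted p = 0.0178).

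Of 18 other genes of sodium-coupled transport, 13 were tested and 1 was called. SLC4A4, a sodium bicarbonate cotransporter, rose from 3.76, 2.34 and 2.95 normalized counts, which are 3, 4 and 3 reads, to 35.7, 188 and 105 (log2 difference 4.50, limma adjusted p = 0.00803). The adjusted p was 0.0536 without depleted replicate 2. The log2 difference was 5.15 without depleted replicate 1, and 2.96 when 10 rather than 1 was added to the normalized counts. Over all 8 lists, 64 of 89 different genes other than the members were tested, of which 2 rose and 8 fell. Of all genes tested, 4.36% were called higher and 1.97% lower. The lists were chosen with earlier results of these data known, so nothing is read from this count.

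**Figure D4:**
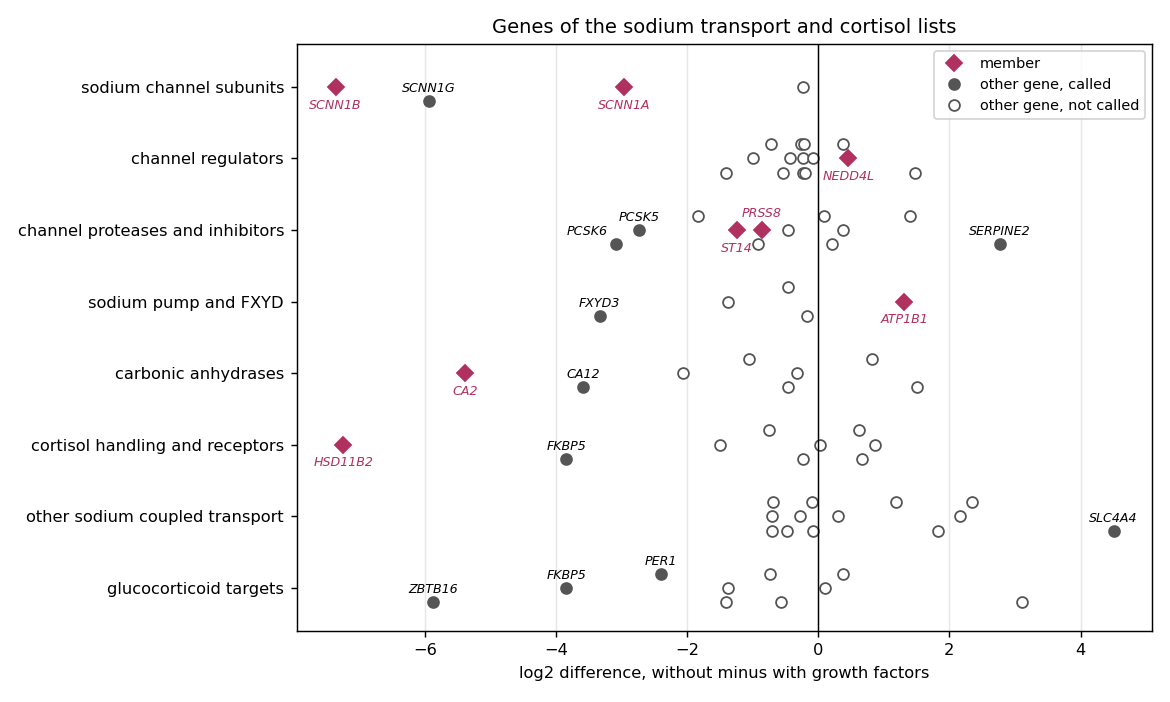
Log2 difference, without minus with growth factors, of the members (diamonds) and of the other tested genes of the 8 lists (circles, filled where called by limma), with zero drawn as a line. SCNN1B and HSD11B2 lie farthest to the left, at -7.36 and -7.24, and of the filled circles only SERPINE2 and SLC4A4 lie to the right of zero.

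The order of the members by level per kb of canonical transcript differed between the conditions. In the controls it ran, by mean, from CA2 (5687 normalized counts per kb) through SCNN1A (2370), ST14 (1350), HSD11B2 (1253), ATP1B1 (1169), SCNN1B (1063) and PRSS8 (619) to NEDD4L (322). Every pair of neighbours in that order overlapped, so it is loose.

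Without growth factors it ran from ATP1B1 (2258 normalized counts per kb) through ST14 (844), PRSS8 (545), NEDD4L (474), SCNN1A (292) and CA2 (162) to HSD11B2 (7.43) and SCNN1B (5.81). Here ATP1B1 lay above ST14 and CA2 above HSD11B2 with no overlap, and the other neighbours overlapped. With all exons of a gene as its length, ATP1B1 was ranked 7 in the controls and 2 without growth factors.

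**Figure D5:**
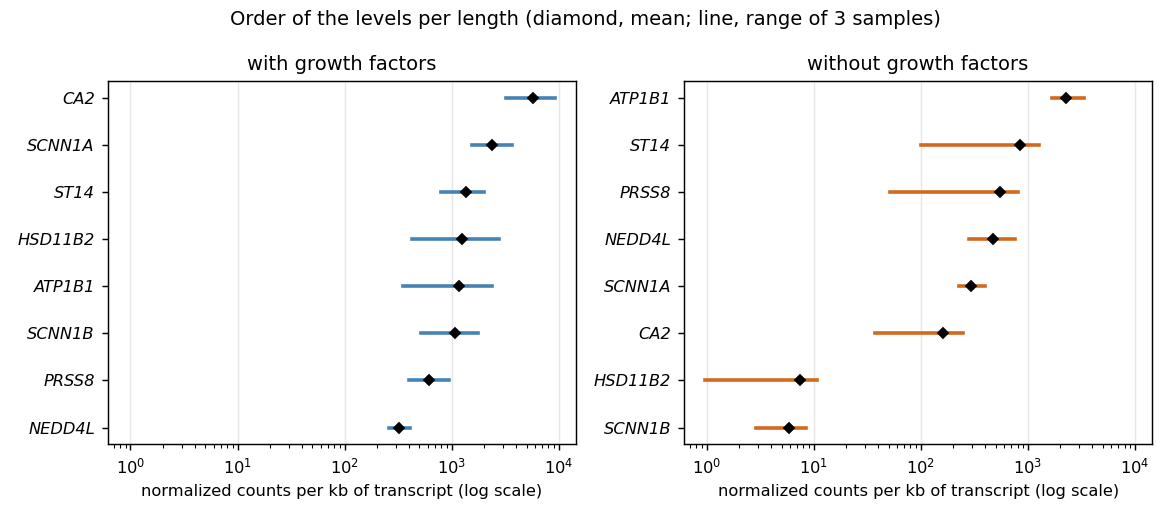
Normalized counts per kb of canonical transcript (log scale) of the 8 genes, ordered by mean in each condition, with diamonds for the mean and lines for the range of 3 samples. CA2 leads with growth factors, ATP1B1 leads without, and HSD11B2 and SCNN1B lie apart from the rest at 7.43 and 5.81.

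Control replicate 1 was the highest control for all 8 members, beside 26.8% of all genes tested. Depleted replicate 1 was the lowest depleted sample for 5 of the 8, beside 35.5% of all genes, and the highest for 3, beside 39.0%. The members that were highest in it were SCNN1A, NEDD4L and ATP1B1.

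Genes with a pattern most like that of a member were sought among the 11688 genes whose mean reached 100 normalized counts, by the root mean square difference between log2 profiles over the 6 samples, each centred on its own mean. For SCNN1A they were PEX11A (0.26), KCNQ3 (0.35) and ADGRF1 (0.36). For HSD11B2 they were SCNN1B (0.71), BMP5 (0.76) and SCNN1G (1.0), at wider distances than the neighbours of SCNN1A. For CA2 they were DNER (0.35), CKMT1A (0.35) and A2ML1 (0.41), of which CKMT1A has a near-identical copy, CKMT1B, and is uncertain. These are descriptions over 6 samples that share the 2 conditions.

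Markers of cell types were read in the same samples. All 6 mesenchymal markers rose, and their summed level was 3822 to 11312 normalized counts in the controls and 110949 to 189010 in the depleted samples, with no overlap. The call of SPARC was lost without depleted replicate 2 (limma adjusted p = 0.0671). The 8 luminal markers in the table summed to 9115 to 18676 in the controls and 18425 to 31712 in the depleted samples, which overlapped, while PGR and ELF5 are not in the table. Most of the depleted sums was KRT8 and KRT18, and 6 of the 8 markers had a negative log2 difference. ESR1 (log2 difference -2.99) was called lower by DESeq2 (adjusted p = 0.00161) but not by limma (adjusted p = 0.0632). Of the 8, KRT19 was called lower, but not without control replicate 1 (limma adjusted p = 0.0833), depleted replicate 2 (0.0915) or depleted replicate 3 (0.0878), nor with a replicate block (0.0529).

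The 6 basal markers summed to 46658 to 65083 normalized counts in the controls and 38418 to 146217 in the depleted samples, which overlapped. Most of the depleted sums was KRT17, at 19236, 61384.5 and 123480 normalized counts, and 4 of the 6 markers had a negative log2 difference. KRT17 was called higher without depleted replicate 1 (limma adjusted p = 0.0253) and by DESeq2. KRT14 had a log2 difference of 2.69 and was not called by limma (adjusted p = 0.184), but was called higher with a replicate block (limma adjusted p = 0.0304). TP63 and EGFR were called lower with all samples. The call of TP63 was lost without control replicate 1 (limma adjusted p = 0.0524), control replicate 2 (0.0601) or depleted replicate 3 (0.0664), and by limma without trend (0.0510). That of EGFR was lost by edgeR (adjusted p = 0.0593), with a replicate block (0.0505), and without control replicate 1 (0.108), depleted replicate 2 (0.130) or depleted replicate 3 (0.163). It was also lost by limma after rescaling to the same total (adjusted p = 0.0552), after quantile normalization (0.0717) and without trend (0.0739).

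The leukocyte markers were near the floor, with 2 of 5 (PTPRC and LYZ) in the table and sums of 9.37 to 26.3 with growth factors and 13.4 to 23.6 without. PTPRC, below the minimum and so not tested, went from 1.25, 0 and 1.97 normalized counts to 10.1, 13.8 and 11.2, with no overlap. LYZ went the other way, from 25.1, 9.37 and 11.8 to 9.15, 9.83 and 2.24, overlapped and was not called. The 4 endothelial markers summed to 167 to 1787 with growth factors and 265 to 1610 without. CDH5 was called higher, a call that was lost without control replicate 1 or 2 or depleted replicate 2 or 3 (limma adjusted p = 0.0623, 0.0842, 0.146 and 0.143). It was also lost after quantile normalization (limma adjusted p = 0.0519). KDR went the other way, from 778, 32.2 and 66.9 normalized counts to 0, 24.9 and 22.4, and was not called (log2 difference -3.83, limma adjusted p = 0.193). PECAM1 was not called (log2 difference 0.09), and VWF was below the minimum. Of the markers in the table, 0 were at zero in every sample. The part of these markers in the values of the members was not tested.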

How the data were processed

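Total RNA of MCF10A cells was sequenced by the authors after removal of ribosomal RNA, in 6 strand-specific libraries of single-end reads of 100 bases. The submitters' processing notes name cutadapt, TopHat2, HTSeq and DESeq2, and hg38 with Gencode v22. What was deposited is a normalized signal, the authors' counts per gene divided by DESeq2 size factors. All values were whole multiples of the value of 1 read (100% within 0.01), so reads could be recovered. All 19198 genes reach 3 reads in 3 samples or more. The authors' filter is not described.

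Symbols and coordinates came from Gencode v44, which names 18913 identifiers and lacks 285. Groups and replicate numbers came from the labels. The members and gene lists were chosen with earlier results of these data known, and genes of the lists were named where called, or where they are relatives of a member, receptors, or SGK1, TSC22D3, SPINT1 or SPINT2. The test was limma 3.58.1 (lmFit, eBayes with trend) in R 4.3.3 on log2(normalized count + 1), with Benjamini-Hochberg adjustment over 16988 genes. It was tested on simulated data. For a single gene, the smallest p that an exact permutation test of 3 against 3 allows is 0.1. There were 17 alternatives, including edgeR 4.0.16 and DESeq2 1.42.0 on recovered reads. Figures were made with matplotlib 3.10.9 in Python 3.11.15. A gene of the lists is not reported here.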

Additional observations from a re-analysis of the deposited data

How the results depend on the processing

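Under all 17 alternatives 4 members were called, and each of SCNN1A, SCNN1B, CA2 and HSD11B2 was called in every fit, which describes genes chosen on this same contrast and is no sign of stability. The median log2 difference of the members ran from -2.40 to -1.63. The only direction to turn was that of PRSS8, at 0.45 without depleted replicate 1 (-1.53 to 0.45 as single samples were dropped). Over all genes, 1076 were called, 2116 by DESeq2 on recovered reads, and 453 to 2474 as single samples were dropped, with 634, 675 and 2474 without control replicates 1, 2 and 3, and 453 and 467 without depleted replicates 2 and 3. A replicate block called 967 genes and 4 members. Same-numbered samples had correlations of -0.07, -0.28 and -0.32, which give no sign of pairing by number, although so few samples cannot exclude it. The block changed no call of the members or the 8 lists. Among the markers it ended the calls of KRT19 and EGFR (limma adjusted p = 0.0529 and 0.0505) and added KRT14 as higher (limma adjusted p = 0.0304). Of the channel regulators 0 were called, but 1 (STK39) after rescaling to the same total, 1 after quantile normalization, 2 by DESeq2, and 0 to 1 when each sample was left out, with STK39 called without control replicate 1 or 3. DESeq2 called 2 genes of the pump list, 2 of cortisol handling, 3 of other sodium-coupled transport and 6 glucocorticoid targets (CRISPLD2 higher, the others lower), against 1, 1, 1 and 3. When each sample was left out, counts ran from 0 to 1 for channel subunits, 0 to 1 for carbonic anhydrases, 1 to 3 for cortisol handling, 0 to 2 for other sodium-coupled transport and 2 to 4 for glucocorticoid targets. Genes added in this way without control replicate 3 were FKBP4, SRD5A3 and KLF9, all lower, and SLC4A8, higher. Without depleted replicate 1, SLC12A2 and CRISPLD2 were added, both higher, and the genes lost are given above. The causes were not tested. Depth limits SCNN1B and HSD11B2 without growth factors, where the samples hold between 2 and 33 reads.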
